A study of Rattus norvegicus with 8 samples.

Results

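The NMDA receptor subunits in these data were the 6 genes Grin1, Grin2a, Grin2b, Grin2c, Grin2d and Grin3a, taken by gene symbol. The list was made with earlier results of these data known. These genes held 47 of the 98356 polyadenylation sites measured, and 6 of the 18003 gene symbols. The study asked whether cannabis vapor changes the use of alternative polyadenylation (APA) sites in the hypothalamus, the brain region that controls appetite, body temperature and hormone release. The cannabis group was 4 libraries (labelled replicates 1, 2, 3 and 5) from adult male Long-Evans rats exposed for 10 min to vapor of cannabis plant matter, and the air controls were 4 libraries (replicates 1, 2, 3 and 4) from adult male Long-Evans rats that received air from an unfilled vaporizer. All rats had been fed freely before exposure, food was then withheld, and the hypothalamus was collected 1 hr later. The libraries were made for whole transcriptome termini site sequencing (WTTS-Seq), in which each read is meant to mark the 3′ end of a polyadenylated RNA. A level is thus not meant to grow with transcript length. Levels of different genes are compared here only as sums over sites that carry the gene's symbol, and 64313 of the 98356 sites carry any symbol. Whether ends of these genes lie among the sites without a symbol was not tested.

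The NMDA receptor is a glutamate-gated cation channel that opens when glutamate and a co-agonist, glycine or D-serine, are bound while the membrane is depolarised, which releases a magnesium block and lets calcium enter. Each channel contains obligatory GluN1 subunits, encoded by Grin1, which bind the co-agonist, together with GluN2 subunits (Grin2a to Grin2d), which bind glutamate and set the kinetics and magnesium block of the channel, or GluN3 subunits (Grin3a), which bind glycine and lower calcium entry. In the hypothalamus these receptors are known for excitatory drive onto feeding, vasopressin, oxytocin and reproductive neurons.

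The deposited values were normalized counts, that is, the reads of a site over the library's size factor. The libraries held from 1159811 to 3706778 reads on sites, and 1 read was worth from 0.664 to 1.99 normalized counts. The NMDA receptor genes took 13210 of the 20734916 reads, or 0.0637%. Of the hypothalamic neuron markers 10 of 11 were matched in the files, with none at 0, and of the cortical or hippocampal markers 2 of 5. The thalamic markers were matched at 4 of 4, with none at 0. They summed to between 334 and 419 normalized counts in the air controls and between 349 and 435 in the cannabis group. Cerebellar granule cell markers were matched at 1 of 4, Zic1 (17.9 to 61.1 and 26.1 to 114). How much neighbouring tissue the dissections held was not tested. The hypothalamic neuron markers summed to between 3466 and 5824 normalized counts in the air controls and between 7604 and 9554 in the cannabis group (exact permutation P = 0.0286, two-sided, the smallest that 4 against 4 libraries allow). Vasopressin (Avp) alone was between 1054 and 3082 in the air controls and between 3278 and 6314 in the cannabis group. Every other matched marker of this list overlapped between the groups, such as Oxt (371 to 889 and 871 to 1674) and Slc17a6 (53.6 to 168 and 57.1 to 154). The study lists sites of Avp and Oxt as higher with cannabis, so the sum is not a measure of hypothalamic neurons apart from these genes. The 3 endothelial markers, of which Flt1 took most, summed to between 81.1 and 88.0 in the air controls and between 93.0 and 115 in the cannabis group (exact permutation P = 0.0286). Each of the 3 overlapped between the groups: Flt1 (60.7 to 77.9 and 77.1 to 105), Cldn5 (0 to 14.6 and 2.95 to 5.98) and Pecam1 (5.85 to 11.9 and 0.984 to 11.2). The part of these cell markers in the results on NMDA receptor genes was not tested.

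Grin1, the obligatory subunit, dominated the family. Its gene total, the sum over its sites, was 898, 848, 1068 and 1390 normalized counts in air controls 1 to 4, and 1475, 790, 849 and 1422 in cannabis replicates 1, 2, 3 and 5. High libraries (air control 4 and cannabis 1 and 5) and low libraries (air control 2 and cannabis 2 and 3) were found in both groups, which overlapped over most of their range. Group means (± SD, n = 4 each) were 1051 ± 245 for air and 1134 ± 365 for cannabis. By limma on log2(normalized count + 1), in which the pseudocount of 1 makes fold changes of low genes smaller, the log2 fold change was 0.08 with a 95% interval from -0.47 to 0.62 (exact permutation P = 0.800, two-sided, adjusted P = 0.999 by limma with Benjamini-Hochberg adjustment over all genes). On a linear scale this interval runs from 0.724 to 1.54 times the control level. Grin1 ranked 210th of 18003 gene symbols by level and had at least 700 reads in every library, so that counting error was small beside the spread between libraries. The coefficient of variation expected from counting alone was 3.05%, against 23.3% among the air controls and 32.2% among the cannabis libraries.

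Grin2b encodes the GluN2 subunit with slow decay and strong magnesium block. Its total was 189, 205, 255 and 288 normalized counts in air controls 1 to 4, and 235, 238, 183 and 296 in the cannabis libraries 1, 2, 3 and 5. The lowest and the highest library were both cannabis-exposed, and the control range lay inside theirs. Means were 234 ± 45.5 and 238 ± 46.1 (SD, n = 4 each), and the log2 fold change by limma was 0.02 (95% interval from -0.45 to 0.50, exact permutation P = 0.943).

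Grin2d encodes a GluN2 subunit with very slow decay and weak magnesium block, found in diencephalon and brainstem. The Grin2d total was 100.2, 81.4, 77.9 and 59.6 normalized counts in the air controls, and 65.8, 118, 78.7 and 79.9 in the cannabis libraries. Cannabis 2 was highest and air control 4 was lowest, with the remaining libraries of both groups between them. The limma log2 fold change was 0.09 (95% interval from -0.46 to 0.64, exact permutation P = 0.657).

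Grin2a, whose subunit gives fast-decaying currents and rises during postnatal development in forebrain, had a low total over the sites that carry its symbol. Its total was 25.6, 15.6, 20.8 and 25.8 normalized counts in air controls and 17.4, 15.9, 15.7 and 31.5 in the cannabis libraries. Cannabis 5 was the highest library while the other cannabis libraries were at the low end of the control range. Grin2c, best known from cerebellar granule cells and astrocytes, was as low, at 17.5, 21.5, 21.5 and 27.8 in air controls and 26.1, 16.6, 20.7 and 18.4 in the cannabis group. The groups overlapped for both genes. The log2 fold changes by limma were -0.15 (95% interval from -0.89 to 0.59, exact permutation P = 0.83) for Grin2a and -0.11 (95% interval from -0.78 to 0.56, exact permutation P = 0.571) for Grin2c. Per library these genes had only 13 to 41 and 14 to 32 reads, and counting alone gives coefficients of variation of 22.3% and 21.6%, beside 22.1% and 19.2% among air controls and 37.7% and 20.1% in the cannabis group, where cannabis 5 was high for Grin2a. Differences inside these intervals were not detectable with these libraries.

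Grin3a, the GluN3 subunit gene, showed the lowest P of the family, without passing a threshold. Its total was 113, 98.2, 63.8 and 91.4 normalized counts in air controls and 74.5, 59.1, 85.6 and 57.6 in the cannabis group. Air controls 1, 2 and 4 were above every cannabis library, and air control 3 was below 2 of them. Means were 91.5 ± 20.5 and 69.2 ± 13.3 (SD, n = 4 each). The log2 fold change by limma was -0.39 with a 95% interval from -0.93 to 0.16 (exact permutation P = 0.114, limma P = 0.149, adjusted P = 0.999).

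**Figure D1:**
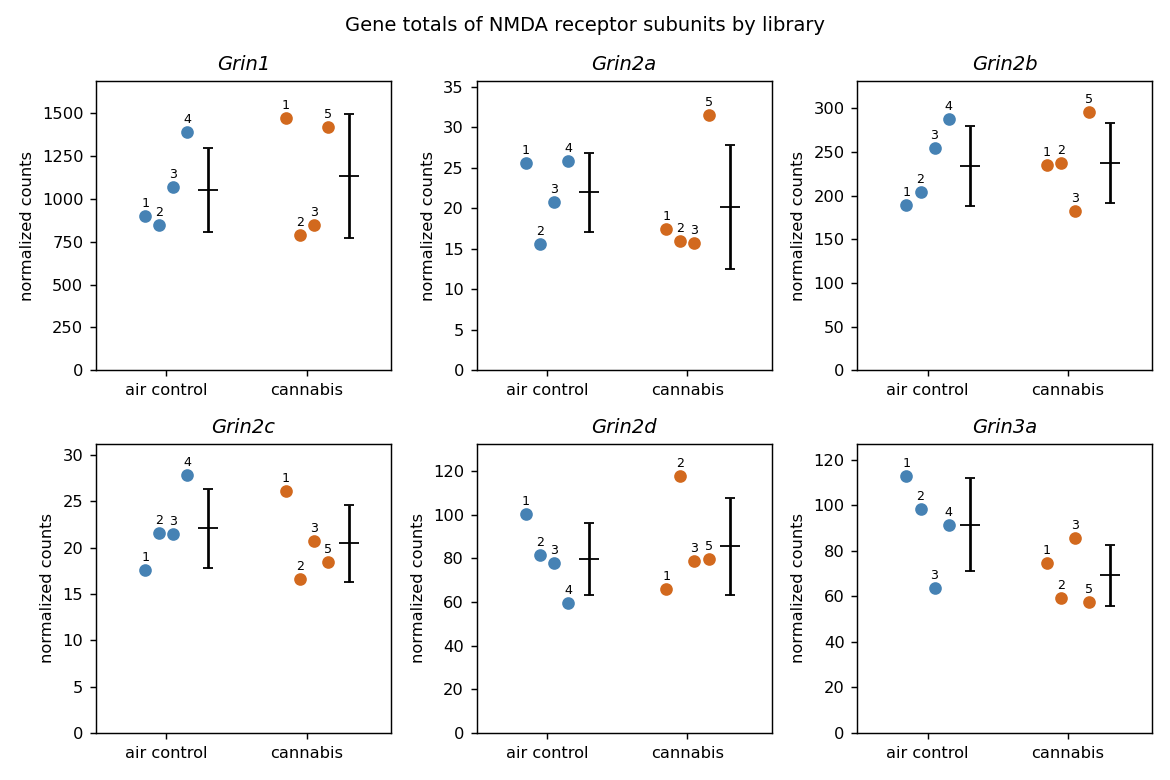
Gene totals of the 6 NMDA receptor genes in normalized counts (vertical axes, each from 0) for 4 air controls (blue) and 4 cannabis libraries (orange), with replicate numbers above the points and mean ± SD beside them. In every panel the libraries of both groups overlap, and Grin3a is the gene with 3 controls above all cannabis libraries.

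The adjusted P of each of the 6 gene totals was 0.999 by limma. Over the family, 0 of 6 gene totals had P under 0.01 by limma and 0 had P under 0.05, against a background of 0.278% of all gene symbols with P under 0.01 and 2.41% with P under 0.05. With adjustment over all genes 0 of 6 passed 0.1, with a background of 0.00555%. Tests on the recovered reads called 0 of 6 at P under 0.01 and 0 at P under 0.05, both with edgeR (background 0.3% and 2.52%) and with DESeq2 (0.423% and 2.18%). The groups overlapped for all 6 genes, while 1.98% of gene symbols had groups that did not overlap. The median log2 fold change of the 6 genes was -0.04, and that of all 18003 gene symbols was 0.05. In bulk tissue, fewer cells of a type and less RNA per cell cannot be told apart, and this holds for every level given here.

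The order of the gene totals, which hold only sites with the gene's symbol, was Grin1, Grin2b, Grin2d, Grin3a, Grin2c and Grin2a. Their means over 8 libraries were 1093, 236, 82.6, 80.3, 21.3 and 21.0 normalized counts. Grin1 was above Grin2b, Grin2b above Grin2d and Grin3a above Grin2c in 8 of 8 libraries, with ranges that did not overlap. Neighbours that did not differ beyond their spread were Grin2d and Grin3a, with Grin2d higher in 3 of 8 libraries, and Grin2c and Grin2a, with Grin2c higher in 6 of 8.

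Because receptors differ by the GluN2 subunit they contain, the 4 Grin2 genes were also expressed as shares of their sum. Grin2b made up 56.9%, 63.3%, 68.0% and 71.8% of the GluN2 sum in air controls 1 to 4 and 68.2%, 61.3%, 61.4% and 69.5% in the cannabis libraries. It was the major GluN2 gene in all 8 libraries, and the cannabis values lay inside the control range. Grin2d was the second, with 30.1%, 25.2%, 20.8% and 14.9% in air controls and 19.1%, 30.3%, 26.4% and 18.8% in the cannabis libraries. The values of both groups were interleaved. Group means of Grin2b were 65.0 ± 6.40% in air controls and 65.1 ± 4.37% in the cannabis group (SD, n = 4, exact permutation P = 0.971). For Grin2d they were 22.7 ± 6.49% and 23.7 ± 5.66% (exact permutation P = 0.857), for Grin2a 6.12 ± 1.24% and 5.46 ± 1.39% (exact permutation P = 0.457) and for Grin2c 6.15 ± 0.780% and 5.78 ± 1.72% (exact permutation P = 0.629). None of these 4 shares differed beyond the spread between libraries.

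**Figure D2:**
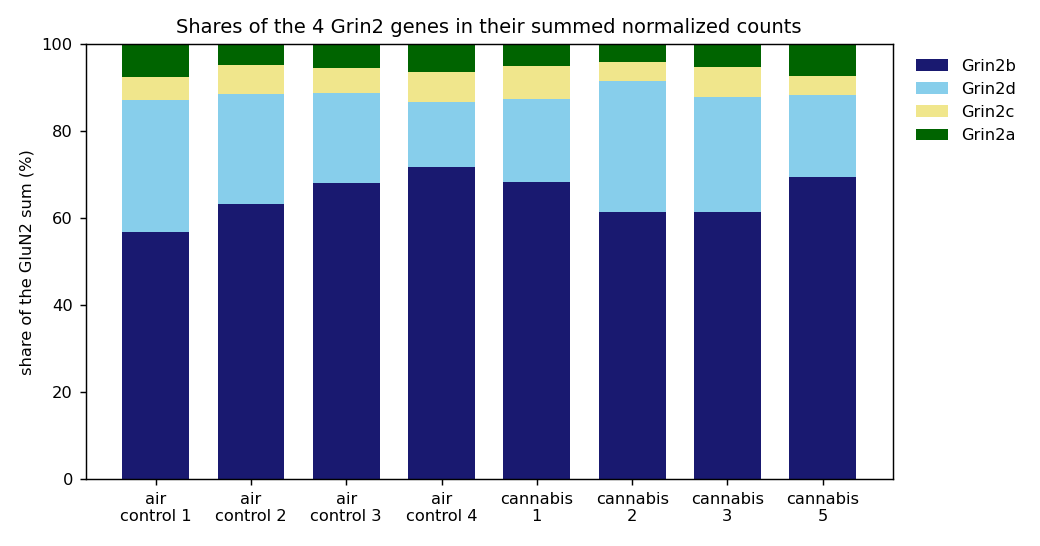
Share of each Grin2 gene in the summed normalized counts of the 4 Grin2 genes (vertical axis, percent), 1 bar per library. Grin2b fills from 56.9% to 71.8% of every bar and Grin2d from 14.9% to 30.3%, with no step between the air control and the cannabis bars.

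The ratio of the GluN2 sum to Grin1 was 0.371, 0.381, 0.351 and 0.289 in air controls and 0.233, 0.491, 0.351 and 0.299 in the cannabis group. Cannabis 1 and cannabis 2 were the lowest and the highest of all libraries, and the means were 0.348 ± 0.0415 and 0.344 ± 0.110 (SD, n = 4, exact permutation P = 0.943). The sum of all 6 genes was 1501 ± 274 normalized counts in air controls and 1567 ± 384 in the cannabis group (exact permutation P = 0.943), and Grin1 gave 69.6 ± 3.42% and 71.3 ± 6.22% of it (exact permutation P = 0.657).

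The 3′ ends of the 6 genes were organised very differently. Grin2b had 29 sites, Grin1 6, Grin2a 5, Grin3a 4, Grin2d 2 and Grin2c 1, where the median gene symbol had 2 and 0.689% of gene symbols had 29 or more. Sites are numbered here within each gene from the highest to the lowest mean. Of the 47 sites 11 had a mean of at least 10 normalized counts over the 8 libraries: 2 of Grin1, 6 of Grin2b and 1 each of Grin2c, Grin2d and Grin3a. The remaining 36 had means from 1.41 to 8.02, and 26 of the 47 lacked a read in at least 1 library.

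Grin1 ended almost entirely at 1 place. Its site 1 lies on chromosome 3 from 2507730 to 2507766 on the minus strand (build Rnor_6.0), in the class that the study calls distal, at the end of the transcript. Site 1 took 89.2%, 97.7%, 97.2% and 99.3% of the Grin1 total in air controls and 98.7%, 95.2%, 93.9% and 95.8% in the cannabis group. Air control 1 was lowest, and the groups overlapped, with means of 95.8 ± 4.54% and 95.9 ± 2.06% (SD, n = 4). The difference of the arcsine square root of the share by limma was -0.01 (95% interval from -0.15 to 0.12, exact permutation P = 1.00 for the share itself).

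Most of the remaining Grin1 signal was at site 2, which gave 84.1, 11.97, 15.4 and 3.97 normalized counts in air controls and 9.93, 26.6, 38.4 and 36.1 in the cannabis group. Air control 1 was far above every other library, while the other 3 air controls were below 3 of the 4 cannabis libraries. Over all 8 libraries the limma log2 fold change was 0.57 (95% interval from -0.77 to 1.92, exact permutation P = 0.971). With air control 1 left out, a choice made after seeing the data, the log2 fold change was 1.34 by limma, 1.32 by edgeR and 1.34 by DESeq2. P was 0.0332 by limma, 0.0385 by edgeR (adjusted P = 1 by edgeR) and 0.036 by DESeq2, over 0.01 in each. The direction was not stable, since over all 8 libraries the log2 fold change was -0.06 with edgeR, -0.08 with DESeq2 and -0.20 with the replicate number as a block.

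Grin2b was spread over many ends. Its site 1 gave 47.5, 53.9, 83.9 and 145 normalized counts in air controls and 90.7, 108, 47.2 and 118 in the cannabis group, or from 25.1% to 50.3% of the gene total. The air controls ran from 47.5 to 145 and the cannabis libraries from 47.2 to 118. The limma log2 fold change was 0.20 (95% interval from -0.64 to 1.04, exact permutation P = 0.800). The 6 Grin2b sites with a mean of at least 10 together took 57.9%, 71.3%, 75.8% and 71.0% of the total in air controls and 69.3%, 82.1%, 65.6% and 76.6% in the cannabis libraries. Thus between 17.9% and 42.1% of the Grin2b reads fell on the other 23 sites. The summed share of the 6 sites did not separate the groups (69.0 ± 7.72% and 73.4 ± 7.40%, SD, n = 4, exact permutation P = 0.486).

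Among Grin2b sites 2 to 6 the make-up varied from library to library, and no site separated the groups. Site 2 was 7.31, 27.5, 50.4 and 15.9 normalized counts in air controls and 13.7, 20.6, 9.84 and 40.7 in the cannabis libraries, a wide range within each group. Site 3 was steadier in the air controls, at 14.6, 18.0, 15.4 and 27.8, and gave 37.3, 17.3, 16.7 and 25.3 in the cannabis group. The groups overlapped at both sites. Site 4 gave 17.5, 11.97, 22.8 and 7.94 in air controls and 8.69, 29.9, 7.87 and 14.6 in the cannabis group. Site 5 gave 13.9, 20.4, 12.1 and 1.99 against 4.97, 7.31, 26.6 and 8.45, and site 6 gave 8.77, 14.4, 8.73 and 5.96 against 7.45, 12.6, 11.8 and 19.97. Again no site separated the groups. The limma log2 fold changes of sites 2 to 6 were -0.13, 0.30, -0.08, 0.01 and 0.40, and the exact permutation P values were 0.714, 0.457, 0.971, 0.943 and 0.343.

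**Figure D3:**
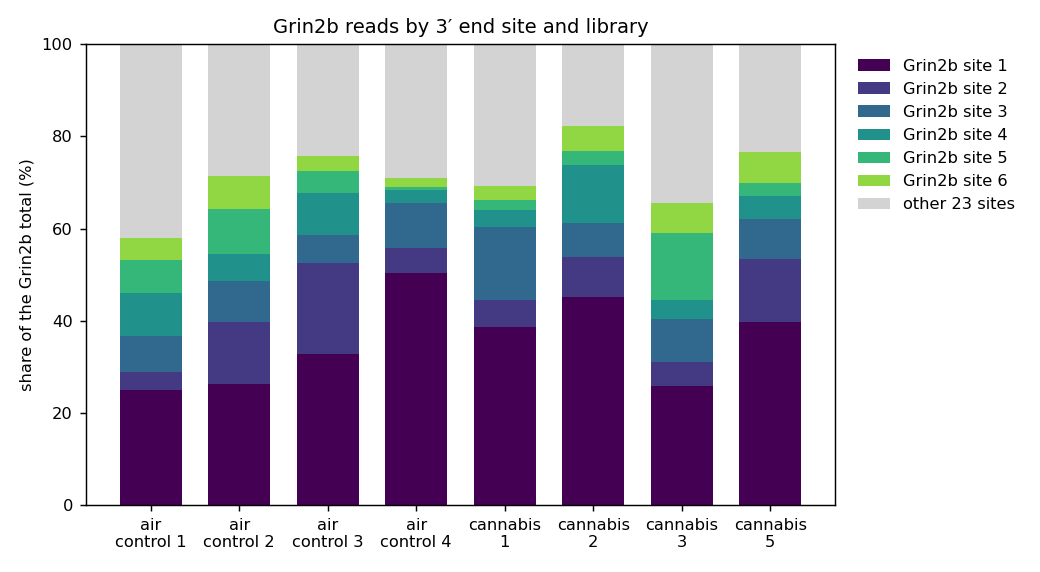
Share of the Grin2b total (vertical axis, percent) at its 6 sites with a mean of at least 10 normalized counts (colours) and at the other 23 sites together (grey), 1 bar per library. Site 1 ranges from 25.1% (air control 1) to 50.3% (air control 4), and the largest site 5 segment, 14.5%, is in cannabis 3.

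Grin3a site 1 carried from 84.1% to 96.7% of the Grin3a total. It gave 103, 82.6, 55.7 and 87.4 normalized counts in air controls and 72.0, 55.1, 76.8 and 54.5 in the cannabis group, following the gene total in having air control 3 among the low libraries. The limma log2 fold change of the site was -0.33 (95% interval from -1.05 to 0.40, exact permutation P = 0.143). Its share was 89.7 ± 5.01% in air controls and 93.6 ± 2.96% in the cannabis group (SD, n = 4, exact permutation P = 0.257).

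Grin2d had a major and a minor end. Site 1 gave 87.7, 80.2, 77.9 and 57.6 normalized counts in air controls and 65.8, 118, 78.7 and 79.9 in the cannabis group, and the limma log2 fold change was 0.15 (95% interval from -0.55 to 0.86, exact permutation P = 0.543). Site 2 lies within an exon on chromosome 1 from 101822637 to 101822642 on the minus strand (build Rnor_6.0). It is a site that the study singled out on these same libraries, so its difference between the groups is not independent evidence of a direction. Its reads were 17, 1, 0 and 1 in air controls 1 to 4, or 12.4, 1.20, 0 and 1.99 normalized counts, and it had no read in any cannabis library. Of the 19 control reads 17 thus came from air control 1, and air control 3 was at 0 like the cannabis libraries. With a floor of 3 reads over the cannabis group and the 19 control reads taken as counted, the site was 7.11-fold lower per library read with cannabis. The floor covers counting error of the cannabis group only, so with that of the control reads the lower limit would be smaller. Without air control 1 both groups were at or under this floor, so that no fold can be given.

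The call on Grin2d site 2 depended on the test and on that library. By limma the log2 fold change was -1.62 (95% interval from -3.31 to 0.08, limma P = 0.0601, adjusted P = 1.00, exact permutation P = 0.143). On the recovered reads P was 0.00426 with edgeR and 0.00799 with DESeq2, with adjusted P of 1.00 in both. Without air control 1, a choice made after seeing the data, P was 0.125 with edgeR and 0.360 with DESeq2, with 2 reads left in the controls. In air control 1 the site was 12.4% of the Grin2d reads (17 of 137, 95% Wilson interval from 7.89% to 19.0%), and in the cannabis group it was 0 of 414 reads, which allows a share of up to 0.725%. Values for air control 1 stood beside this: that library exceeded the sum of the other 7 at 1251 sites, against 30 to 298 in other libraries except air control 4 with 853. At sites with a mean of at least 10 normalized counts, air control 4 did so more often (120 sites) than air control 1 (107). Among the 47 NMDA receptor sites air control 1 did so at Grin2d site 2 and at Grin2b site 13, where it had 28 of 32 reads, and no other library did so at any.

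For the 47 sites together, limma gave P under 0.01 at 0 sites and P under 0.05 at 2, against 0.381% of all sites with P under 0.01 and 3.03% with P under 0.05. After adjustment over all sites 0 of 47 passed 0.1, against 0.00102% of all sites. With edgeR and with DESeq2 1 of 47 had P under 0.01, Grin2d site 2, and 3 had P under 0.05. Over all sites these shares were 0.526% and 2.91% with edgeR and 0.316% and 1.86% with DESeq2. The log2 fold change was positive at 23 of the 47 sites, with a median of -0.03 beside a median of 0.01 over all sites. At the 11 sites with a mean of at least 10 it lay between -0.33 and 0.57, and at the 36 others between -1.62 and 1.57.

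**Figure D4:**
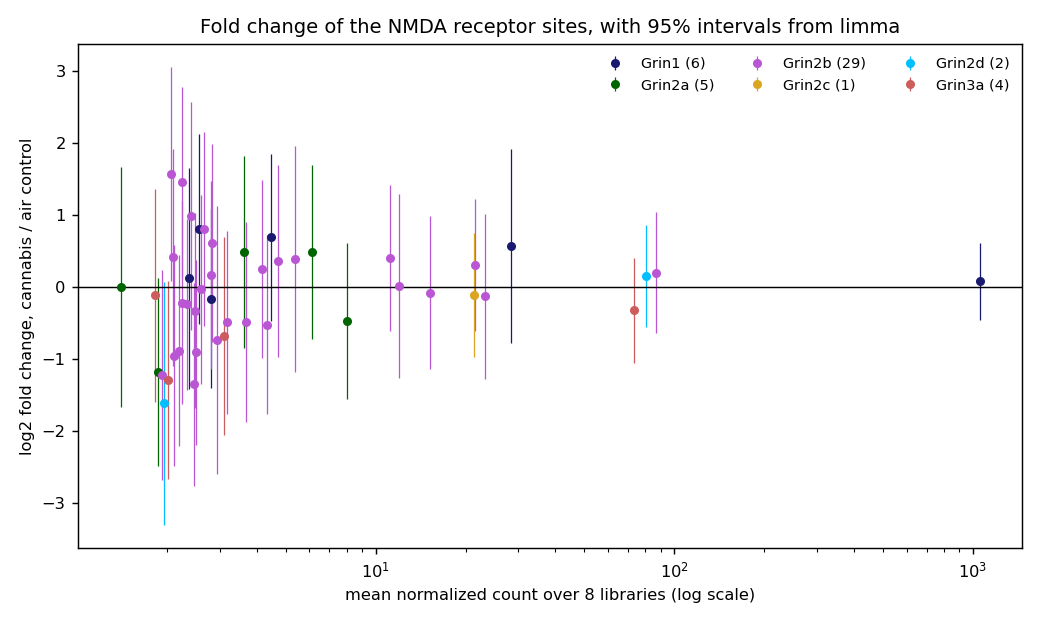
Log2 fold change, cannabis over air control, with 95% intervals from limma (vertical axis) against the mean normalized count (horizontal log axis) for the 47 NMDA receptor sites, coloured by gene, with the number of sites in parentheses. The 11 sites with a mean of at least 10 lie between -0.33 and 0.57, and the sites with lower means spread from -1.62 to 1.57 with wider intervals.

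A few sites read only a few times are named here after their values were seen. Grin2b site 23 had 2, 0, 3 and 0 reads in air controls and 2, 6, 5 and 4 in the cannabis libraries (limma log2 fold change 1.45, limma P = 0.0320, exact permutation P = 0.0286). Grin2b site 28 had 1 read in the air controls, in replicate 4, and 4, 1, 2 and 9 in the cannabis group (limma log2 fold change 1.57, limma P = 0.0389, exact permutation P = 0.0857), a ratio per library read of 14.3 with a 95% counting interval from 2.22 to 598. In normalized counts the groups did not overlap at site 23 but overlapped at site 28. Grin2a site 4 had 3, 3, 6 and 1 reads in air controls and 0, 1, 1 and 2 in the cannabis group, again without overlap in normalized counts. Non-overlap was thus found at 2 of 47 sites, Grin2b site 23 and Grin2a site 4, beside 2% of all sites.

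Site use within genes was tested on 46 sites, since Grin2c has only 1. At P under 0.01 limma called 0 of the 46 shares, against 0.5% of all shares tested, and after adjustment 0 of 46, against 0%. At P under 0.05, which 3.33% of all shares passed, there were 4 shares: Grin2a site 4 (14.7 ± 7.71% of the gene in air controls and 3.82 ± 2.69% in the cannabis group, limma P = 0.0209, exact permutation P = 0.0286), Grin2b site 28 (0.172 ± 0.345% and 1.45 ± 0.956%, limma P = 0.0369, exact permutation P = 0.0571) and the pair of Grin2d sites. The 2 Grin2d shares are mirror images of each other, and site 2 was 4.30 ± 5.57% in air controls and 0% in the cannabis group (SD, n = 4, limma P = 0.0456, exact permutation P = 0.143). The adjusted P of all 4 was 1.00.

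The partners of the receptor were tested in the same fit. Of 46 listed genes for scaffolds, transport, co-agonist handling, glutamate uptake and signalling behind the channel, 45 were matched, all but Lin7c. By limma on gene totals 0 of 45 rose and 0 fell at P under 0.01, and 0 passed P under 0.05, beside 0.278% and 2.41% of all gene symbols. The log2 fold change was positive for 24 of them, with a median of 0.05.

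The most read scaffold was Dlg2, which encodes PSD-93, an anchor of NMDA receptors at the postsynaptic density. It was 715 ± 65.5 normalized counts in air controls and 769 ± 51.2 in the cannabis group (log2 fold change 0.11, 95% interval from -0.27 to 0.48, exact permutation P = 0.286). Grina, which encodes a membrane protein named for its association with glutamate receptors, was 1390 ± 259 and 1417 ± 523 (log2 fold change -0.04, exact permutation P = 0.914). Slc6a9 encodes the glycine transporter GlyT1, which removes co-agonist from around the receptor, and was 213 ± 28.9 and 222 ± 86.4 (log2 fold change -0.01, exact permutation P = 0.886). None of the 3 differed beyond the spread between libraries. Slc1a3, the astrocyte glutamate transporter GLAST, was 993, 1103, 1704 and 892 in air controls and 1514, 1998, 1078 and 1919 in the cannabis libraries (log2 fold change 0.48, 95% interval from -0.07 to 1.03, exact permutation P = 0.200), with overlapping groups. Ppp3ca, the catalytic subunit of calcineurin, a phosphatase driven by calcium entering through the channel, was 1010 ± 200.5 and 1184 ± 456 (log2 fold change 0.18, exact permutation P = 0.571). The sparsely read scaffold gene Shank2, named here after its values were seen, had the highest log2 fold change of the list, 0.92 (exact permutation P = 0.514), at a mean of 14.0 normalized counts.

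**Figure D5:**
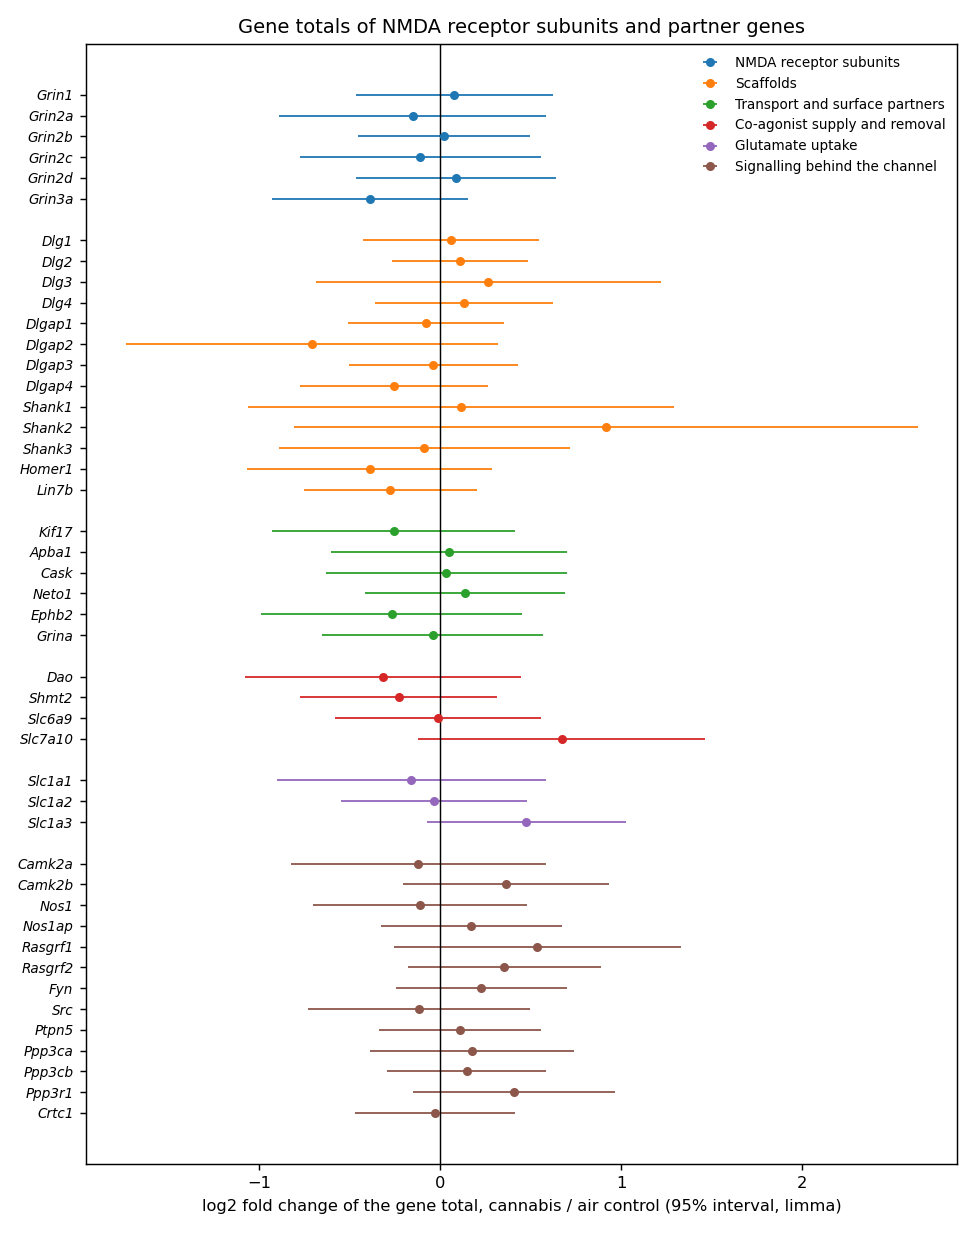
Log2 fold change of the gene total, cannabis over air control, with 95% intervals from limma (horizontal axis) for the 6 NMDA receptor genes and the 39 partner genes with a mean of at least 10 normalized counts, coloured by role. All 45 intervals include 0, and Dlgap2 at -0.71 and Shank2 at 0.92 mark the ends.

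Genes with the pattern most like that of Grin1 over the 8 libraries, by Pearson correlation of log2(total + 1) among 3653 genes with a mean total of at least 100, were Kri1 (r = 0.97), Cacna1c (r = 0.97), which encodes an L-type calcium channel subunit, and Nfe2l1 (r = 0.96). Cacna1c was 125, 123, 130 and 167 normalized counts in air controls and 161, 112, 120 and 151 in the cannabis group, so it was high in the same 3 libraries as Grin1. For Grin2b they included Rpl13 (r = 0.94) and Ptgds (r = 0.92). Between members, r over the 8 libraries lay between -0.93 for Grin2c and Grin2d, of which Grin2c had 14 to 32 reads per library, and 0.73 for Grin1 and Grin2b. These values are descriptions, since all genes of a library share its depth and scaling, and the highest of so many correlations over 8 points are high by selection.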

How the data were processed

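WTTS-Seq libraries of hypothalamic RNA from rats were analysed in 8 samples. The authors mapped reads with TMAP to the rat genome build Rnor_6.0, clustered 3′ ends into sites, assigned genes with Cuffcompare and deposited, per library, a normalized count (a size-factor-scaled signal) for each site, dividing reads by the DESeq2 size factor. Every value was a whole multiple of 1 read within 0.001 read (100% of values), so reads were recovered exactly. No site had under 16 reads over all libraries. Groups and replicate numbers came from the labels. Nothing states more than that each library is a separate sample of its group, so P values measure the spread between these samples. The study gives 8 rats per group for this experiment but 8 libraries in all. How rats were matched to libraries is not stated. The members and gene lists were chosen with earlier results of these data known.

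Gene totals are sums over sites with 1 symbol. Site levels (98356), gene totals (18003) and the arcsine square root of site shares (56617 sites of genes with several sites and reads in every library) were each fitted in 1 model with limma 3.58.1 (R 4.3.3), cannabis against air control without covariates, two-sided, on log2(normalized count + 1) with a trend for levels and totals. P was adjusted by Benjamini-Hochberg over each whole table, and calls were made at P under 0.01 or adjusted P under 0.1. Single values had an exact permutation test (smallest P 0.0286). Alternatives were edgeR 4.0.16 (quasi-likelihood, TMM) and DESeq2 1.42.0 on recovered reads, no trend, a mean of at least 10, a pseudocount of 0.5 or 5, equal library totals, untransformed shares, a gene total of at least 30, the replicate block and each library left out. The replicate block draws its difference from the same-numbered libraries 1, 2 and 3, since air control 4 and cannabis 5 have no partner. The fits were tested on simulated reads. Named were all 6 genes, sites with a mean of at least 10 or P under 0.01, the Grin2d site the study singles out, the 3 genes most like each member with a mean total of at least 100, and the most read partner gene per role. Values of some genes are not reported here, and the counts include them. Positions of 2 sites came from the study's tables, matched by symbol and values, and positions of the others were not used here. Intervals of shares and floors of 3 reads cover counting error only, and PCR copies are not independent molecules. The permutation tests ran in scipy 1.17.1 (Python 3.11.15) and tables and plots were made with pandas 2.3.3, matplotlib 3.10.9 and numpy 2.4.6.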

Additional observations from a re-analysis of the deposited data

Results flagged for a closer look

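In 9 of 88 groups of 4 libraries examined, 1 library stood far from the other 3 relative to the range of its group. How often chance gives this in sparse and skewed counts was not tested, so the count has no rate to be set against. The shares and levels of a site are not independent of each other. For gene totals the case was Grin2a in cannabis 5, at 31.5 normalized counts. Grin1 site 2 was 84.1 normalized counts in air control 1, or 9.36% of the Grin1 reads of that library (95% Wilson interval from 7.86% to 11.1%), while the other 7 libraries had from 3.97 to 38.4 normalized counts. Grin2d site 2 was 12.4 normalized counts in the same library. Grin2b site 5 was 26.6 normalized counts in cannabis 3, or 14.5% of the Grin2b reads (95% Wilson interval from 10.2% to 20.3%), and Grin2b site 4 was 12.6% in cannabis 2 (95% Wilson interval from 9.53% to 16.4%). Grin2b site 28, examined after its values were seen, was 1.99 normalized counts and 0.690% in air control 4 against 0 in the other air controls, which is 1 read and below the floor of 3 reads. A lone read beside libraries at 0 always meets this rule.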

How the results depend on the processing

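Against counts of 0 for the NMDA receptor genes at P under 0.01 by limma, the alternatives gave 1 site with edgeR and 1 with DESeq2 (Grin2d site 2, log2 fold change -5.21 and -4.61, fitted values that depend on the prior at a group without reads), 1 share with the replicate block (Grin2a site 4, -0.27) and 0 to 2 shares with a library left out. Those were the mirror-image Grin2d shares without air control 3, and Grin2a site 2 without cannabis 2. All other alternatives gave 0, and gene totals gave 0 under every alternative run. Replicate numbers did not pair the libraries: deviations of same-numbered libraries correlated from -0.24 to 0.09 (3 pairs). Air control 4 and cannabis 5 had no partner, so every difference with the replicate block rests on these 3 pairs alone. The replicate block called 229 of all sites (375 without it) and 24 of all gene totals (50 without it). All sites numbered 44 at a mean of at least 10, 187 with DESeq2 without air control 1 (310 with it) and 227 to 617 with a library left out, lowest without cannabis 5 and highest without air control 3. Without air control 1 the split turned, with 141 higher and 90 lower against 121 and 254. All gene totals numbered 29 at a mean of at least 10, where fewer genes were tested, 76 with DESeq2, 98 without trend and 30 to 90 with a library left out, lowest without air control 1 and highest without cannabis 1. Shares numbered 157 at a gene total of at least 30 and 237 to 457 with a library left out. The values that follow changed sign, all with P over 0.01. In the limma fit the single-gene totals, sites and share among them were between -0.13 and 0.20, except Grin1 site 2 (0.57). For totals these were Grin2b with edgeR (-0.031) and DESeq2 (-0.039), and with the replicate block Grin2c (0.045) and Grin2d (-0.019). For sites they were Grin1 site 2 (replicate block -0.20, edgeR -0.059, DESeq2 -0.083), Grin2b site 4 (edgeR 0.012, DESeq2 0.00054, and 0.061 and 0.072 without air control 1), Grin2b site 5 (replicate block -0.54, pseudocount 5 -0.034, edgeR -0.076, DESeq2 -0.075, equal totals -0.0016, and -0.035 and -0.0065 without air control 1) and Grin2b site 1 (DESeq2 without air control 1, -0.036). The Grin1 site 1 share gave 0.024 with the replicate block and 0.00069 untransformed. With a library left out, the ranges were -0.067 to 0.23 for the Grin1 total, -0.090 to 0.14 for Grin2b, -0.23 to 0.0041 for Grin2c, -0.073 to 0.21 for Grin2d and -0.045 to 0.19 for the sum of the 6 genes. They were -0.079 to 0.24 for Grin1 site 1, -0.029 to 1.34 for Grin1 site 2, -0.018 to 0.51, -0.58 to 0.29, -0.45 to 0.15 and -0.59 to 0.35 for Grin2b sites 1, 2, 4 and 5, -0.0084 to 0.27 for Grin2d site 1 and -0.062 to 0.021 for the Grin1 site 1 share. As percentage points of the GluN2 sum, taken from group means, Grin2b ranged from -2.60 to 2.36, Grin2c from -0.97 to 0.13 and Grin2d from -1.70 to 3.39. With all libraries these were 0.10, -0.37 and 0.93. The Grin3a total stayed lower, from -0.55 to -0.28. The cause of these moves was not tested. Depth limits Grin2a, Grin2c and the sites with a mean under 10.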
